A study of Mus musculus with 12 samples.

Results

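The transcripts of 9 amino acid transporter genes were followed in whole mouse colon with and without colitis. The members were the rows of the deposited gene table named Slc6a14, Slc7a5, Slc3a2, Slc1a5, Slc38a1, Slc38a2, Slc6a20a, Slc7a8 and Slc7a9, which are 9 of the 54532 genes listed. All 9 reached an FPKM (fragments scaled by transcript length and library total) of 0.1 or more in 3 or more libraries and were among the 24102 genes tested.

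RNA came from 12 adult mice on the C57BL/6N background, 1 library per mouse, in 4 groups of 3. Tmem173fl/fl mice carry loxP-flanked alleles of Tmem173, the gene of the innate DNA-sensing adaptor STING, and no Cre. Tmem173iΔmye mice carry the same alleles together with Lyz2-CreERT2, a tamoxifen-inducible recombinase under the control of the myeloid gene Lyz2. All mice, controls included, had received 5 tamoxifen injections. Colitic mice of both genotypes were given dextran sulfate sodium (DSS), a polymer toxic to the colonic epithelium, in drinking water for 7 days, and the other mice plain water. The comparisons ask what colitis does to these transporters when myeloid STING can be expressed, and whether inducible myeloid deletion changes it. The labels call the Tmem173fl/fl mice WT and the Tmem173iΔmye mice CRE. Replicates are numbered 1 to 3, except 1, 2 and 5 in the colitic Tmem173iΔmye group.

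Amino acids cross the plasma membrane through carriers of several solute carrier families. Slc6a14 encodes ATB0,+, which takes up neutral and cationic amino acids together with sodium and chloride, and Slc6a20a encodes a sodium-coupled carrier of proline and other imino acids. Slc3a2 encodes CD98hc, the heavy chain that brings light chains such as LAT1 (Slc7a5) and LAT2 (Slc7a8) to the membrane, where they exchange large neutral amino acids for glutamine. Slc7a9 encodes the light chain b0,+AT, which pairs with the heavy chain rBAT (Slc3a1) and exchanges cystine and cationic amino acids at the brush border. Slc1a5 (ASCT2), Slc38a1 (SNAT1) and Slc38a2 (SNAT2) carry glutamine and other small neutral amino acids. LAT1 and CD98hc are known for feeding leucine to the growth kinase mTORC1, and SNAT2 is known as a target of the amino acid starvation factor ATF4.

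In the GRCm38 annotation all 9 are protein-coding genes. Slc6a14 lies on the X chromosome at 21714896 to 21742355 on the plus strand. Slc7a5 lies on chromosome 8 (121881150 to 121907694), Slc3a2 on chromosome 19 (8706882 to 8723369) and Slc7a8 on chromosome 14 (54722209 to 54781946), all on the minus strand. Slc1a5 (16781340 to 16798274) and Slc7a9 (35448796 to 35466036) lie on the plus strand of chromosome 7. Slc38a1 (96571418 to 96642913) and Slc38a2 (96687392 to 96699730) are neighbours on the minus strand of chromosome 15, 44.5 kb apart with 0 protein-coding genes between them. Slc6a20a (chromosome 9, 123634770 to 123678885, minus strand) ends 2.20 kb from its paralogue Slc6a20b. Of its 4084 exonic bases, 563 are shared with Gm17120 and 22 with Ccr9, both on the opposite strand, and how reads of these genes were told apart is not given in the sources used here. Its values are therefore uncertain.

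The reference promoter table (RefSeq, GRCm38.p6) held windows for 6 of the 9 members, without Slc7a5, Slc1a5 and Slc38a1. The bases upstream of a RefSeq start site and outside annotated exons are printed for Slc6a14, the most abundant member, and for Slc7a8 and Slc7a9, the members called between colitic genotypes. They lie at chrX:21714650-21714895 (plus strand), chr14:54781947-54782136 (minus strand) and chr7:35448842-35449036 (plus strand), and capitals mark a motif match. Slc7a9 had 2 windows for different RefSeq start sites, and the first is shown. Both start sites lie inside the gene as annotated above, which begins at 35448796, so the printed Slc7a9 bases lie in an intron of that longer model.
Slc6a14: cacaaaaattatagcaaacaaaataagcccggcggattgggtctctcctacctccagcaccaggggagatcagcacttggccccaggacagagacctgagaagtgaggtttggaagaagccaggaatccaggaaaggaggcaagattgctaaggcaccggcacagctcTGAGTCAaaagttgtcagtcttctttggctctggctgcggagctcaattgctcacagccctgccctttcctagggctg
Slc7a8: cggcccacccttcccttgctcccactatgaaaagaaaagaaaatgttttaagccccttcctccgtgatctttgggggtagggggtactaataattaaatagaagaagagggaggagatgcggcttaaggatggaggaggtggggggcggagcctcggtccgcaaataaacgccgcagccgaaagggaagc
Slc7a9: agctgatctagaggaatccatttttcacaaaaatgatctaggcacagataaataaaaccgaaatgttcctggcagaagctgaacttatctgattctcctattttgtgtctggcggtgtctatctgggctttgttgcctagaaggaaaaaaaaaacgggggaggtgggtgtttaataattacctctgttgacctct
The ATF4 element TGATGNAA, read on both strands, matched none of the member windows of 250 bases and 3.45% of all 32851 windows. The AP-1 type motif TGANTCA, tried after the sequences had been seen, matched Slc6a14 at 82 bases before its start site as TGAGTCA and 6.75% of all windows. The motifs TTCNNNGAA (STAT type, 7.02% of windows) and GTTAAT (HNF1 type, 6.43% of windows) were also tried then, and of these only GTTAAT matched, in the Slc6a20a window at 56 bases before the start site. A match describes letters in a window and is not evidence of binding, and TGANTCA and GTTAAT cannot overlap TGATGNAA in these windows, which held no match to it.

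Library totals ran from 13823237 to 18718915 counts, so every member but Slc6a20a and Slc7a9 had at least 170 counts in each library. Slc6a20a had 38 to 162 counts and Slc7a9 had 32 to 227 counts per library. Epithelial markers (10 genes) summed to between 5697 and 18056 CPM (counts scaled to library size after TMM normalisation) in all libraries. High Xist and no Y-linked reads marked replicate 3 in each untreated group and the replicate numbered 5 among colitic Tmem173iΔmye mice, and the other 9 libraries the reverse. Pancreatic acinar markers (10 genes) reached 11716 CPM in replicate 1 of the colitic Tmem173iΔmye group, 9211, 4652 and 572 CPM in the colitic Tmem173fl/fl libraries, and 3712 and 1987 CPM in replicate 3 of the untreated Tmem173fl/fl and replicate 2 of the untreated Tmem173iΔmye group. The targeted gene Tmem173 was at 37.7 to 44.0 CPM in colitic Tmem173fl/fl and 23.8 to 47.8 CPM in colitic Tmem173iΔmye libraries, a log2 difference of -0.28 (standard error, SE, 0.26; edgeR adjusted p 0.602). A loss of Tmem173 in whole colon was thus not detectable, so within these libraries the genotype rests on the labels. By other measurements, the study reports a smaller rise of Tmem173 mRNA in inflamed colon of Tmem173iΔmye mice. It also reports loss of STING protein staining in their myeloid cells. The difference from its mRNA result was not examined here.

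**Figure D1:**
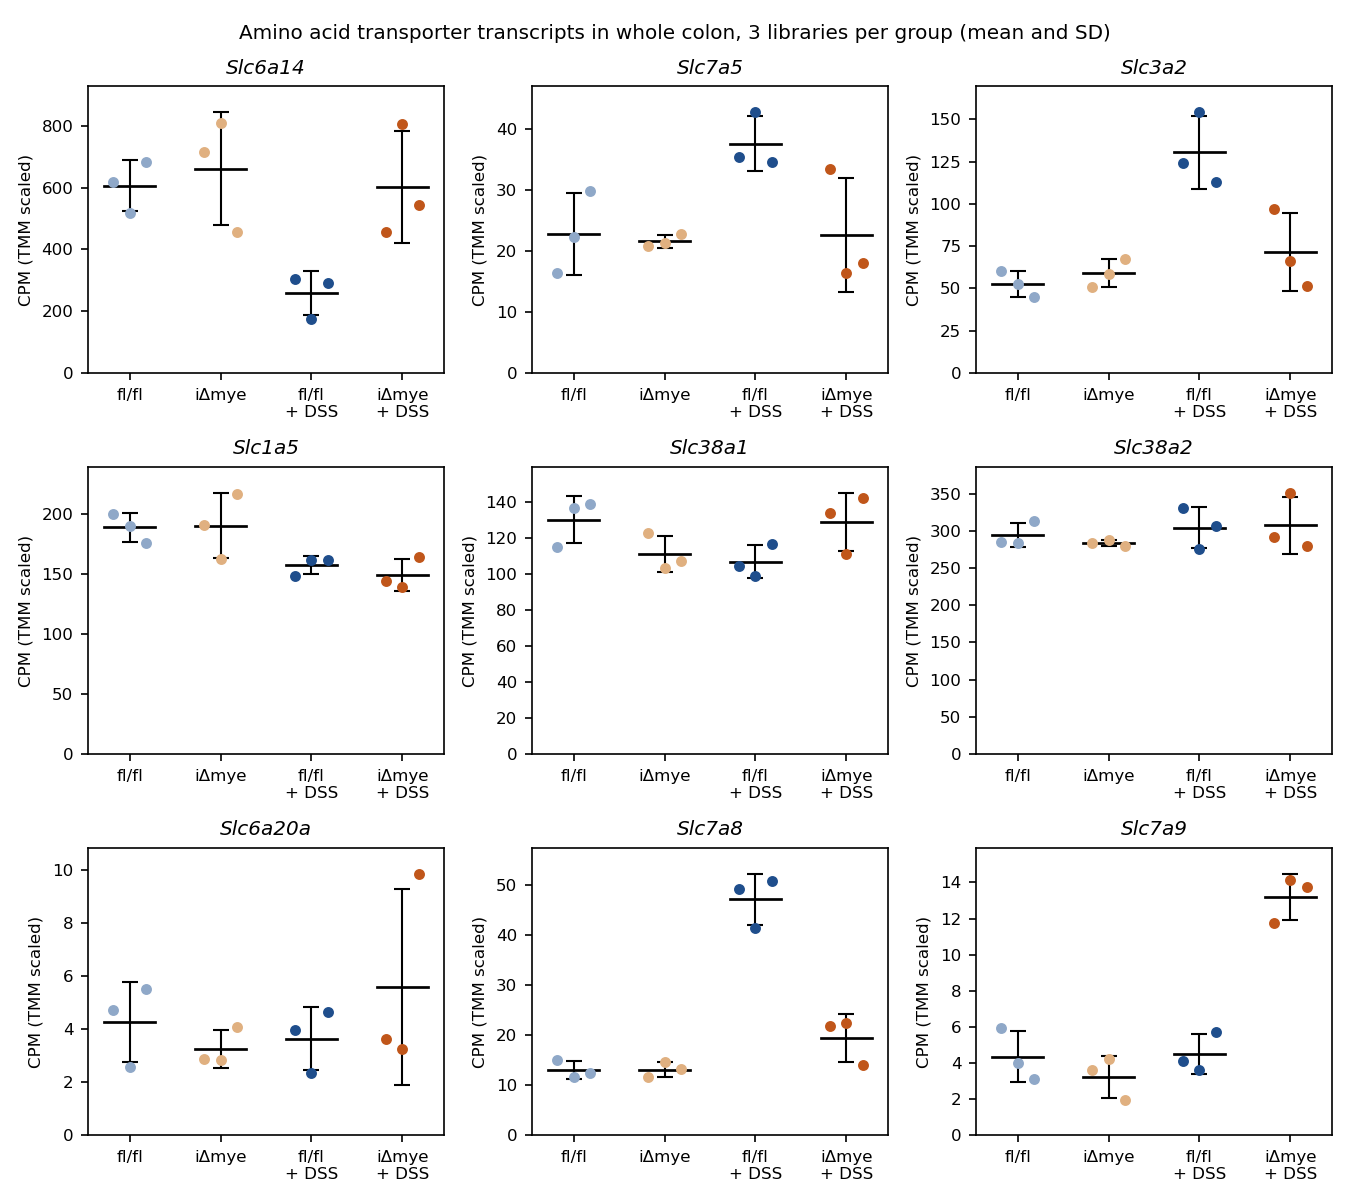
CPM of each of the 9 transporter genes (vertical axes, from 0) in the 4 groups (horizontal axes), with 1 point per library and black lines for the mean and SD of 3 libraries. Slc6a14 is lowest and Slc7a5, Slc3a2 and Slc7a8 are highest in colitic Tmem173fl/fl libraries, and Slc7a9 is highest in colitic Tmem173iΔmye libraries.

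Per length, Slc6a14 was by far the most abundant member in untreated colon. In untreated Tmem173fl/fl mice it reached 172 ± 24.0 FPKM, followed by Slc1a5 at 44.2 ± 2.62, Slc38a2 at 32.5 ± 1.93 and Slc3a2 at 14.6 ± 2.07 FPKM (SD, n = 3 each). Slc38a1 (7.37 ± 0.769 FPKM) and Slc7a5 (6.02 ± 1.81 FPKM) overlapped, then came Slc7a8 at 2.53 ± 0.356 FPKM. Slc7a9 (1.58 ± 0.511 FPKM) and Slc6a20a (1.02 ± 0.365 FPKM) overlapped at the bottom of the order. The order was the same in untreated Tmem173iΔmye mice, where Slc6a14 was at 188 ± 51.6 FPKM. In colitic Tmem173fl/fl mice Slc3a2 reached 37.3 ± 5.99 FPKM and overlapped with both Slc1a5 and Slc38a2, and Slc7a8 (9.50 ± 1.06 FPKM) overlapped with Slc7a5 (10.3 ± 1.18 FPKM) above Slc38a1. In colitic Tmem173iΔmye mice the first 6 places were as in untreated mice, and Slc7a9 (4.87 ± 0.427 FPKM) overlapped with Slc7a8 (3.83 ± 0.969 FPKM) and with Slc7a5.

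Slc6a14 made up 60.9% ± 3.22 of the summed FPKM of the 9 genes in untreated Tmem173fl/fl mice and 62.5% ± 8.70 in untreated Tmem173iΔmye mice. In colitic Tmem173fl/fl mice its share was 34.9% ± 7.22, and in colitic Tmem173iΔmye mice 59.6% ± 7.61 (SD, n = 3 each). Slc3a2 went the other way, from 5.21% ± 0.945 in untreated to 17.6% ± 4.44 in colitic Tmem173fl/fl mice, with 7.23% ± 3.12 in colitic Tmem173iΔmye mice. The shares sum to 100% within a library, so one share falls when another rises. The summed FPKM of the 9 genes was 255 to 304 in untreated and 194 to 228 in colitic Tmem173fl/fl libraries, without overlap.

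**Figure D2:**
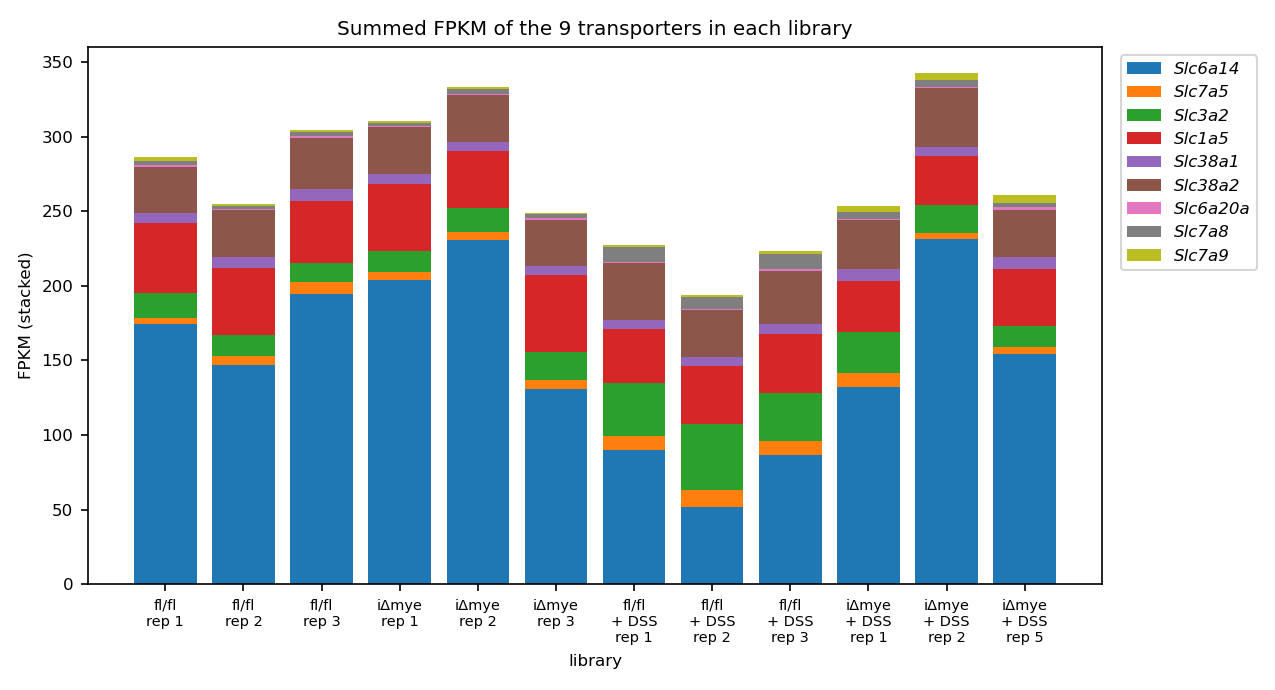
Summed FPKM of the 9 genes in each library (vertical axis, from 0), stacked by gene, for the 12 libraries (horizontal axis, by group and replicate). Slc6a14 is the largest block in every library and is smallest in the 3 colitic Tmem173fl/fl libraries, at 51.6 to 89.9 FPKM.

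In Tmem173fl/fl mice, colitis lowered Slc6a14 2.24-fold and raised Slc3a2 2.60-fold and Slc7a8 3.80-fold, while the glutamine carriers did not pass the test. A gene was called when its edgeR quasi-likelihood p, adjusted by Benjamini-Hochberg over all genes tested, was under 0.05 and its level changed by at least 1 on the log2 scale. By this rule 2 of the 9 members were called higher and 1 lower. Among all 24102 genes 22.5% were called, 14.9% higher and 7.61% lower, so 3 of 9 is close to the background.

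Slc6a14 was at 617, 518 and 683 CPM in untreated Tmem173fl/fl libraries and at 306, 176 and 292 CPM in colitic ones. Every colitic library was below every untreated one. On the log2 scale Slc6a14 fell by 1.17 (SE 0.22, edgeR adjusted p 0.00243). Without replicate 2 of the colitic group, the lowest library, it was -0.97 and no longer past the fold minimum.

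Of 10 epithelial markers 5 were also called lower in these libraries and none higher. They summed to 14077 to 17765 CPM in untreated and 5697 to 9744 CPM in colitic Tmem173fl/fl libraries, with 0 markers at zero counts. Slc6a14 per 1000 CPM of these markers was 34.7, 31.1 and 48.5 in untreated and 41.1, 30.9 and 30.0 in colitic libraries. These ratios, computed after the values had been seen, overlapped between the groups, with means of 38.1 ± 9.16 and 34.0 ± 6.15 (SD, n = 3 each). In bulk tissue, fewer cells of a type and less RNA per cell cannot be told apart.

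**Figure D3:**
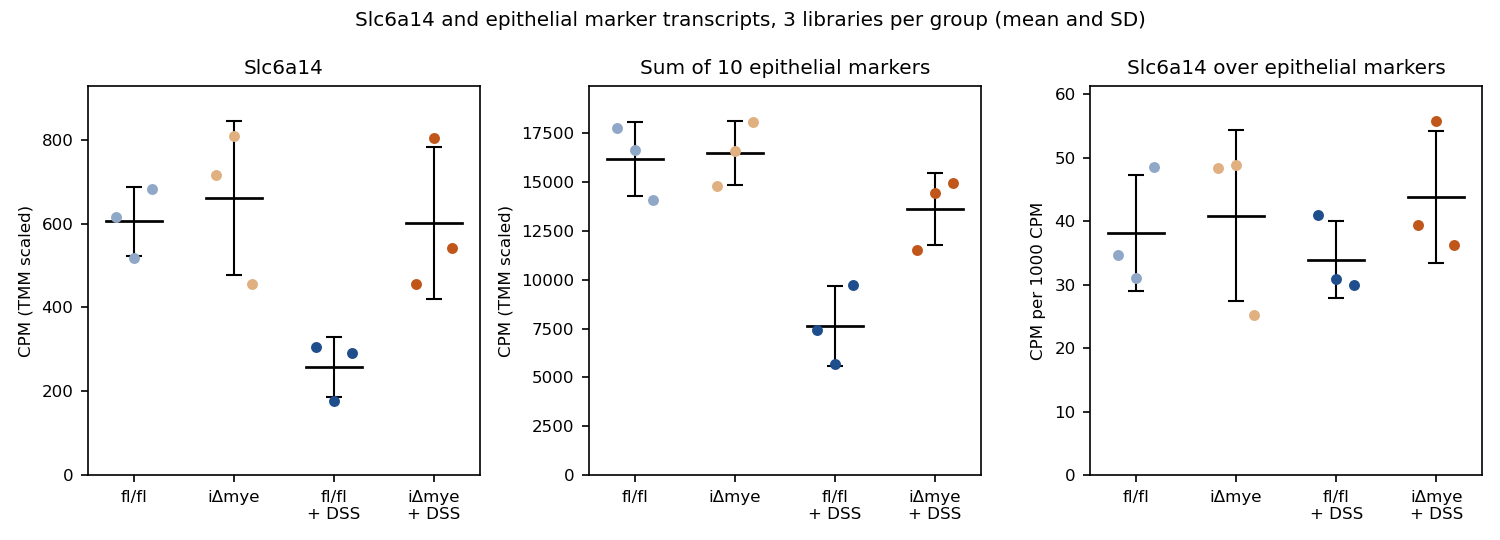
CPM of Slc6a14 (left), summed CPM of 10 epithelial markers (middle) and Slc6a14 CPM per 1000 CPM of those markers (right), on vertical axes from 0, for the 4 groups with 1 point per library and lines for mean and SD. The first 2 panels are lowest in colitic Tmem173fl/fl libraries, and in the third all groups overlap, between 25.3 and 55.8.

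Slc3a2, the common heavy chain, was at 60.6, 52.5 and 45.2 CPM in untreated and 124, 154 and 113 CPM in colitic Tmem173fl/fl libraries. The groups were well apart, with a log2 fold change of 1.38 (SE 0.17, edgeR adjusted p 0.000159). Slc7a8, the LAT2 light chain, was at 15.1, 11.5 and 12.3 CPM in untreated and at 49.0, 41.3 and 50.8 CPM in colitic libraries. It had the largest change of the members here, 1.93 (SE 0.16, edgeR adjusted p 2.00e-05). Slc7a5, the LAT1 light chain, was at 16.4, 22.3 and 29.9 CPM and at 35.5, 42.8 and 34.7 CPM. These groups did not overlap either, but the log2 fold change of 0.79 (SE 0.22, edgeR adjusted p 0.0174) was under the fold minimum, so Slc7a5 was not called. Without replicate 3 of the untreated group it was 1.04 and called. Of 15 alternative fits 13 did not call it, and with 1 library left out it ranged from 0.60 to 1.04.

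Slc1a5, known as the glutamine carrier ASCT2, was at 177 to 201 CPM in untreated and 149 to 162 CPM in colitic Tmem173fl/fl libraries. The groups did not overlap, but its log2 fold change of -0.19 (SE 0.13, edgeR adjusted p 0.284) did not pass the test. Slc38a1 was at 115 to 139 and 98.7 to 117 CPM, and Slc38a2 at 284 to 313 and 276 to 331 CPM, with log2 fold changes of -0.22 and 0.12 (edgeR adjusted p 0.254 and 0.558). Slc6a20a (-0.17, edgeR adjusted p 0.754) and Slc7a9 (0.11, edgeR adjusted p 0.812) overlapped widely between the groups. In all, 5 of 9 members had groups without overlap, and 49.3% of all genes tested had.

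The heavy chain was called higher, and the summed level of its light chains was higher as well. Over the 6 genes known as light chains of CD98hc (Slc7a5, Slc7a6, Slc7a7, Slc7a8, Slc7a10 and Slc7a11), the sum was 22.3 ± 1.63 FPKM in untreated and 41.1 ± 1.86 FPKM in colitic Tmem173fl/fl mice (SD, n = 3 each). Slc3a2 over that sum was 0.661 ± 0.144 and 0.913 ± 0.184, ranges that overlapped. Among the light chains, Slc7a8 made up 11.5% ± 2.46 in untreated and 23.1% ± 1.8 in colitic mice, and Slc7a11 1.25% ± 0.0888 and 7.54% ± 1.79. Slc7a7 (y+LAT1) made up 41.5% ± 4.67 and 26.7% ± 5.0, and Slc7a5 26.7% ± 6.29 and 25.1% ± 3.88. Slc7a5 over Slc7a8 in FPKM was 1.47 to 3.27 in untreated and 0.921 to 1.40 in colitic libraries, without overlap.

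Markers of other cell types also differed between these groups, and their part in the rises of Slc3a2 and Slc7a8 was not tested. Monocyte and macrophage markers (11 genes) summed to 388 to 599 CPM in untreated and 1185 to 1568 CPM in colitic Tmem173fl/fl libraries, neutrophil markers (9 genes) to 46.4 to 106 and 469 to 782 CPM, fibroblast markers (7 genes) to 1205 to 1397 and 8011 to 10193 CPM, and endothelial markers (7 genes) to 135 to 145 and 554 to 781 CPM. None of these markers was at zero counts in these 2 groups. Other lists were lower with DSS: 7 of 8 proliferation markers were called lower, with sums of 923 to 1175 CPM in untreated and 192 to 358 CPM in colitic libraries, and so were 4 of 7 goblet cell markers, at 19599 to 32826 and 8641 to 15211 CPM, and 5 of 10 colonocyte markers, of which 1 was called higher. Slc7a8 per 1000 CPM of the monocyte and macrophage markers, computed after the values had been seen, was 20.6 to 32.4 in untreated and 26.3 to 42.9 in colitic Tmem173fl/fl libraries, which overlap. Distal colon Hox genes (6 genes) summed to 221 to 383 CPM in untreated and 27.0 to 42.9 CPM in colitic libraries, and the part of this in the members' values was not tested. In the colitic libraries Slc7a8 was 49.0, 41.3 and 50.8 CPM where pancreatic markers were 9211, 4652 and 572 CPM.

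In Tmem173iΔmye mice, colitis raised Slc7a9 4.07-fold, and no other member was called. Of the 9 members, 1 was called higher and 0 lower, beside 2.08% of all genes called, 1.48% higher and 0.597% lower. Slc7a9 was at 3.58, 4.19 and 1.92 CPM in untreated and at 11.8, 14.1 and 13.7 CPM in colitic Tmem173iΔmye libraries. The groups were far apart, with a log2 fold change of 2.02 (SE 0.34, edgeR adjusted p 0.0165). The call was lost without any one of the 3 untreated Tmem173iΔmye libraries, with log2 fold changes from 1.78 to 2.26 (edgeR adjusted p 0.117, 0.0888 and 0.0921 without replicates 1, 2 and 3). Of the members, 1 had groups without overlap, and so did 21.5% of all genes. Markers of other cell types differed here too. Neutrophil markers summed to 45.8 to 81.3 CPM in untreated and 205 to 317 CPM in colitic Tmem173iΔmye libraries (Mmp8 was at 0 in the untreated group), fibroblast markers to 1169 to 1484 and 2315 to 3403 CPM, and monocyte and macrophage markers to 358 to 474 and 755 to 1009 CPM. Of 12 small intestine enterocyte markers 9 were tested, of which 1 was called higher and 8 had a log2 fold change above 0, with a median of 0.87, while their sums overlapped at 362 to 477 and 282 to 599 CPM. Epithelial markers summed to 14786 to 18056 and 11536 to 14955 CPM. Of 8 proliferation markers 4 were called lower, with sums of 840 to 1021 and 328 to 597 CPM. The part of these differences in the Slc7a9 value was not tested.

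Slc6a14 was at 716, 810 and 457 CPM in untreated and 456, 805 and 543 CPM in colitic Tmem173iΔmye libraries, with a log2 fold change of -0.14 (SE 0.28, edgeR adjusted p 0.863). The libraries of each group spanned nearly the same range. Slc3a2 was at 51.0, 58.5 and 67.7 CPM in untreated and 97.1, 66.5 and 51.3 CPM in colitic libraries, and Slc7a8 at 11.5, 14.6 and 13.1 and at 21.8, 22.5 and 13.9 CPM. Replicate 5 of the colitic group lay within the untreated range for Slc7a8, and replicate 1 was the highest for Slc3a2. Slc7a5 was at 20.8, 21.3 and 22.8 CPM in untreated and at 33.5, 16.4 and 18.03 CPM in colitic libraries. Replicate 1 was the only colitic library above the untreated ones. Slc1a5 was at 163 to 217 and 139 to 164 CPM, Slc38a1 at 103 to 123 and 111 to 142 CPM and Slc38a2 at 280 to 288 and 280 to 351 CPM, none past the test. Slc6a20a was at 2.82 to 4.09 CPM in untreated libraries and at 3.64, 3.23 and 9.83 CPM in colitic ones, where replicate 5 alone was high.

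Without DSS no difference between the genotypes was detectable for any member with 3 libraries a group. The members' log2 differences between untreated Tmem173iΔmye and Tmem173fl/fl mice ran from -0.42 (Slc7a9) to 0.17 (Slc3a2), and 0 of 9 were called. By edgeR, 0 of 9 members had an unadjusted p under 0.05, DESeq2 and limma also called 0, and 0% of all genes were called, although 720 of them had an unadjusted p under 0.05. For all 9 members the 2 groups overlapped, and 7.35% of all genes did not.

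Between colitic genotypes, Slc7a8 was 2.44-fold lower and Slc7a9 2.93-fold higher in Tmem173iΔmye mice. Of the 9 members 1 was called higher and 1 lower, beside 2.81% of all genes called, 0.822% higher and 1.99% lower. Slc6a14, the most abundant member, was on average 2.31-fold higher but did not pass the test. The colitic Tmem173fl/fl libraries are the same ones as in the first comparison, so a value that is low or high in them enters both.

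Slc7a8 was at 49.0, 41.3 and 50.8 CPM in colitic Tmem173fl/fl and 21.8, 22.5 and 13.9 CPM in colitic Tmem173iΔmye libraries. Every library of one group was apart from every library of the other, and the log2 difference was -1.29 (SE 0.23, edgeR adjusted p 0.0278). Slc7a9 was at 4.12, 3.598 and 5.72 CPM and at 11.8, 14.1 and 13.7 CPM, a log2 difference of 1.55 (SE 0.27, edgeR adjusted p 0.0271). Both calls were lost on leaving out any one of the 3 colitic Tmem173fl/fl libraries or colitic Tmem173iΔmye replicate 2, with edgeR adjusted p from 0.0554 to 0.136, while the log2 differences stayed between -1.39 and -1.098 for Slc7a8 and between 1.43 and 1.78 for Slc7a9. By limma on log2(FPKM + 0.1) both were lost too (limma adjusted p 0.0937 for Slc7a8 and 0.0704 for Slc7a9). Slc7a8 was also lost by limma on log2(FPKM + 1) (limma adjusted p 0.0524) and with a replicate block (edgeR adjusted p 0.0689). Per 1000 CPM of the epithelial markers, Slc7a9 was 0.553, 0.632 and 0.587 in colitic Tmem173fl/fl and 1.02, 0.979 and 0.917 in colitic Tmem173iΔmye libraries. These ratios, computed after the values had been seen, did not overlap. In untreated libraries the ratio was 0.223 to 0.333 in Tmem173fl/fl and 0.107 to 0.253 in Tmem173iΔmye mice, so on this scale Slc7a9 was also higher with DSS in Tmem173fl/fl mice, without overlap, where its CPM overlapped. In the colitic Tmem173iΔmye libraries Slc7a8 was 21.8, 22.5 and 13.9 CPM where pancreatic markers were 11716, 89.1 and 0.668 CPM, and the part of pancreatic RNA in these values was not tested.

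Slc6a14 was at 306, 176 and 292 CPM in colitic Tmem173fl/fl and at 456, 805 and 543 CPM in colitic Tmem173iΔmye libraries. All 3 libraries of the latter group were higher, with a log2 difference of 1.21 and an SE of 0.29, but the edgeR adjusted p was 0.0639. It was called by DESeq2 (1.24, adjusted p 0.00217), with no filter on low values (1.21, edgeR adjusted p 0.0211) and in a fit of all 12 libraries (1.22, edgeR adjusted p 0.0142). With colitic Tmem173iΔmye replicate 1 left out, the lowest of its group, the edgeR adjusted p was 0.0411. Of 15 alternative fits, 11 did not call Slc6a14. With 1 library left out its log2 difference went as low as 0.959, under the fold minimum, and its edgeR adjusted p as high as 0.1875. The study names Slc6a14 among its genes for this comparison and chose it on data that hold these libraries, so its direction here is not independent evidence. Per 1000 CPM of the epithelial markers it was 30.0 to 41.1 in colitic Tmem173fl/fl and 36.3 to 55.8 in colitic Tmem173iΔmye libraries, which overlap, with the epithelial markers themselves at 5697 to 9744 and 11536 to 14955 CPM.

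Slc3a2 was at 124, 154 and 113 CPM in colitic Tmem173fl/fl and 97.1, 66.5 and 51.3 CPM in colitic Tmem173iΔmye libraries, and Slc7a5 at 35.5, 42.8 and 34.7 CPM and at 33.5, 16.4 and 18.03 CPM. Neither gene's groups overlapped, although replicate 1 of the colitic Tmem173iΔmye group came close in both. The log2 differences of -0.87 (edgeR adjusted p 0.107) and -0.74 (edgeR adjusted p 0.208) did not pass the test. Without that replicate both were called, at -1.17 (edgeR adjusted p 0.0276) and -1.15 (edgeR adjusted p 0.0238). Of 15 alternative fits, 14 did not call Slc3a2 and 14 did not call Slc7a5. With another library left out, the differences shrank to as little as -0.68 (edgeR adjusted p up to 0.313) for Slc3a2 and -0.54 (edgeR adjusted p up to 0.481) for Slc7a5. Replicate 1 of the colitic Tmem173iΔmye group also had the most pancreatic marker RNA of all 12. Its B and plasma cell markers (7 genes) summed to 1583 CPM, against 563 and 528 CPM in replicates 2 and 5. Its T cell markers (9 genes) summed to 159 CPM, against 90.3 and 37.7 CPM. In colitic Tmem173fl/fl libraries these lists ranged from 709 to 1651 and from 56.3 to 149 CPM. The part of these markers in the differences was not tested. Slc1a5, Slc38a1, Slc38a2 and Slc6a20a overlapped between colitic genotypes. In all, 5 of 9 members had groups without overlap, beside 26.8% of all genes.

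Marker sums of several cell types lay apart between the colitic genotypes as well. Monocyte and macrophage markers were at 755 to 1009 CPM, neutrophil markers at 205 to 317 CPM, fibroblast markers at 2315 to 3403 CPM and endothelial markers at 201 to 402 CPM in colitic Tmem173iΔmye libraries, each below the colitic Tmem173fl/fl range given above. Slc7a8 per 1000 CPM of the monocyte and macrophage markers was 18.4 to 28.8 there, overlapping with the colitic Tmem173fl/fl libraries. Distal colon Hox genes were at 87.2, 93.0 and 500 CPM in replicates 1, 2 and 5 of the colitic Tmem173iΔmye group. The part of these differences in the members' values was not tested.

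The DSS response itself differed between the genotypes for Slc7a8 and Slc7a9. The interaction, the log2 DSS effect in Tmem173iΔmye minus that in Tmem173fl/fl mice, was -1.29 for Slc7a8 (SE 0.29, edgeR adjusted p 0.0337) and 1.99 for Slc7a9 (SE 0.46, edgeR adjusted p 0.0384). Thus 1 of 9 members was called higher and 1 lower, where 2.55% of all genes were called, 0.934% higher and 1.61% lower. Each call was lost without 8 of the 12 libraries in turn, while the interaction stayed from -1.44 to -1.12 for Slc7a8 and from 1.70 to 2.22 for Slc7a9. Slc6a14 (1.095, SE 0.38, edgeR adjusted p 0.152) and Slc3a2 (-1.03, SE 0.31, edgeR adjusted p 0.0980) did not pass. Slc3a2 was called by DESeq2 (-1.07, adjusted p 0.0298), with no filter (-1.09, edgeR adjusted p 0.0322) and on leaving out colitic Tmem173iΔmye replicate 1 (-1.31, edgeR adjusted p 0.0107). Slc7a5 was called without that replicate, at -1.05 (edgeR adjusted p 0.0491), but not with all libraries. Of 20 alternative fits, 17 did not call Slc3a2 and 19 did not call Slc7a5. Slc6a20a (1.012, SE 0.63, edgeR adjusted p 0.424), Slc38a1 (0.50, SE 0.21, edgeR adjusted p 0.234), Slc1a5 (-0.09, edgeR adjusted p 0.871) and Slc38a2 (0.07, edgeR adjusted p 0.909) did not pass either.

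**Figure D4:**
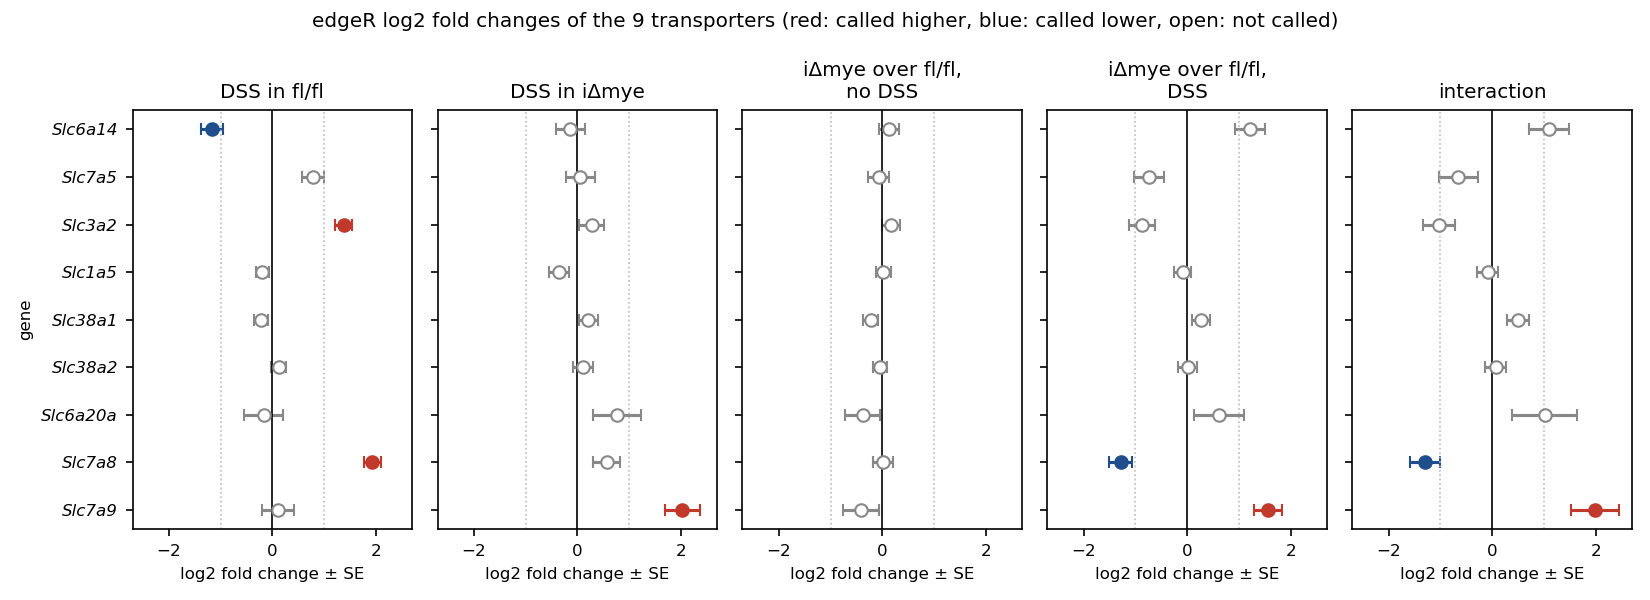
Log2 fold change with its SE (horizontal axes) of each of the 9 genes (vertical axis) in the 5 comparisons, with filled red points called higher, filled blue points called lower and open points not called. The DSS panel of Tmem173fl/fl mice holds 3 filled points, that of Tmem173iΔmye mice 1, the untreated genotype panel none, and the colitic genotype and interaction panels hold Slc7a8 (blue) and Slc7a9 (red).

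Slc3a1, the rBAT heavy chain and known partner of Slc7a9, was not called in any of the 5 comparisons. It was at 67.8, 52.2 and 20.4 CPM in untreated and at 59.9, 63.8 and 1.33 CPM in colitic Tmem173iΔmye libraries, with replicate 5 far below the rest. Its log2 change with DSS was -0.17 (SE 0.88, edgeR adjusted p 0.956). In FPKM, Slc3a1 exceeded Slc7a9 3.29-fold to 22.0-fold in the 9 libraries of the other 3 groups. In colitic Tmem173iΔmye mice the ratio was 0.113 in replicate 5 and at most 5.91 in the others. Slc7a9 itself was at 13.7 CPM in replicate 5, within the range of the other 2 colitic libraries of its group. Distal colon Hox genes summed to 199, 180 and 417 CPM in untreated and 87.2, 93.0 and 500 CPM in colitic Tmem173iΔmye libraries. In each of these groups, and in untreated Tmem173fl/fl mice, they were highest where Slc3a1 was lowest. This was not so in colitic Tmem173fl/fl libraries, with Hox sums of 42.9, 30.7 and 27.0 CPM where Slc3a1 was at 55.2, 35.9 and 68.4 CPM. The part of the Hox differences in the Slc3a1 values was not tested.

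Of 34 other amino acid and peptide transporters, 29 were tested, and 11 of them were called higher and 2 lower with DSS in Tmem173fl/fl mice, beside 14.9% and 7.61% of all genes. Their median log2 fold change was 0.79, against 0.03 over all genes. The largest rise was that of Slc7a11, the cystine and glutamate exchanger xCT and another partner of Slc3a2, from 3.64, 3.79 and 4.51 CPM to 37.0, 52.5 and 38.0 CPM. All colitic libraries were far above the untreated ones, with a log2 fold change of 3.48 (SE 0.21, edgeR adjusted p 2.54e-06). Slc38a3, the glutamine carrier SNAT3, came next at 3.09 (SE 0.93, edgeR adjusted p 0.0268). It had 0, 6 and 4 counts in untreated and 69, 32 and 5 counts in colitic libraries, in the order of their pancreatic marker sums of 9211, 4652 and 572 CPM, but the untreated library with 3712 CPM of these markers had only 4 counts. In the colitic Tmem173iΔmye libraries it had 98, 1 and 0 counts where these markers were at 11716, 89.1 and 0.668 CPM. The part of pancreatic RNA in Slc38a3 was not tested. The call was lost without replicate 1 or 3 of the untreated or replicate 1 of the colitic group, with log2 fold changes from 2.10 to 3.19 (edgeR adjusted p up to 0.137). It was also lost by limma on log2(FPKM + 0.1) and log2(FPKM + 1) (limma adjusted p 0.126 and 0.181). In 1 fit of all 12 libraries and with a replicate block it was lost as well (edgeR adjusted p 0.149 and 0.0676). The others called higher were Slc43a2, Slc36a2, Slc7a2, Slc7a3, Slc36a4, Slc6a15, Slc6a17, Slc6a6 and Slc38a9, the last known as a lysosomal arginine sensor. The 2 called lower were Slc1a1, the glutamate carrier EAAT3, at -2.25 (SE 0.22, edgeR adjusted p 4.80e-05) and Slc15a1, the peptide carrier PepT1, at -1.59 (SE 0.27, edgeR adjusted p 0.00144). In the same untreated and colitic libraries epithelial markers summed to 14077 to 17765 and 5697 to 9744 CPM. Distal colon Hox genes summed to 221 to 383 and 27.0 to 42.9 CPM. The part of these and the other marker differences given above in the changes of this list was not tested.

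In Tmem173iΔmye mice 1 of the 29 was called higher with DSS and 1 lower, beside 1.48% and 0.597% of all genes. Their median was 0.19, against 0.02 over all genes. Slc7a2, the arginine carrier CAT2, rose from 5.64, 2.93 and 3.73 CPM to 11.7, 16.0 and 31.9 CPM, by 2.27 on the log2 scale (SE 0.42, edgeR adjusted p 0.0230), and its value in Tmem173fl/fl mice was 2.15. Slc1a4 (ASCT1), a neutral amino acid exchanger, fell by 1.503 (SE 0.23, edgeR adjusted p 0.0113), with all colitic libraries at 13.1 to 19.3 CPM under the untreated range of 42.0 to 54.2 CPM. Both calls were lost without any one of the 3 untreated libraries, with edgeR adjusted p from 0.0713 to 0.162. Between untreated genotypes 0 were called by edgeR or DESeq2, and 1 passed an unadjusted p of 0.05 with the minimum fold. Between colitic genotypes Slc1a1 alone was called, higher in Tmem173iΔmye mice by 2.29 (SE 0.40, edgeR adjusted p 0.0278), and the median of the 29 was -0.46 against 0.02 over all genes. Among all genes 0.822% were called higher here and 1.99% lower. Slc1a1 was at 6.50, 5.49 and 7.83 CPM in colitic Tmem173fl/fl and at 20.8, 21.8 and 54.7 CPM in colitic Tmem173iΔmye libraries, of which replicate 5 was the highest. Distal colon Hox genes in the same libraries summed to 42.9, 30.7 and 27.0 CPM and to 87.2, 93.0 and 500 CPM, also highest in replicate 5, and epithelial markers to 5697 to 9744 and 11536 to 14955 CPM. Their part in the Slc1a1 difference was not tested. The call was lost without any one of the colitic Tmem173fl/fl libraries or without replicate 2 of the colitic Tmem173iΔmye group (edgeR adjusted p 0.0601 to 0.124). Its interaction of 2.63 (SE 0.47, edgeR adjusted p 0.0122) was the only one called in this list, beside 0.934% of all genes called higher and 1.61% lower. It was called without each library in turn.

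**Figure D5:**
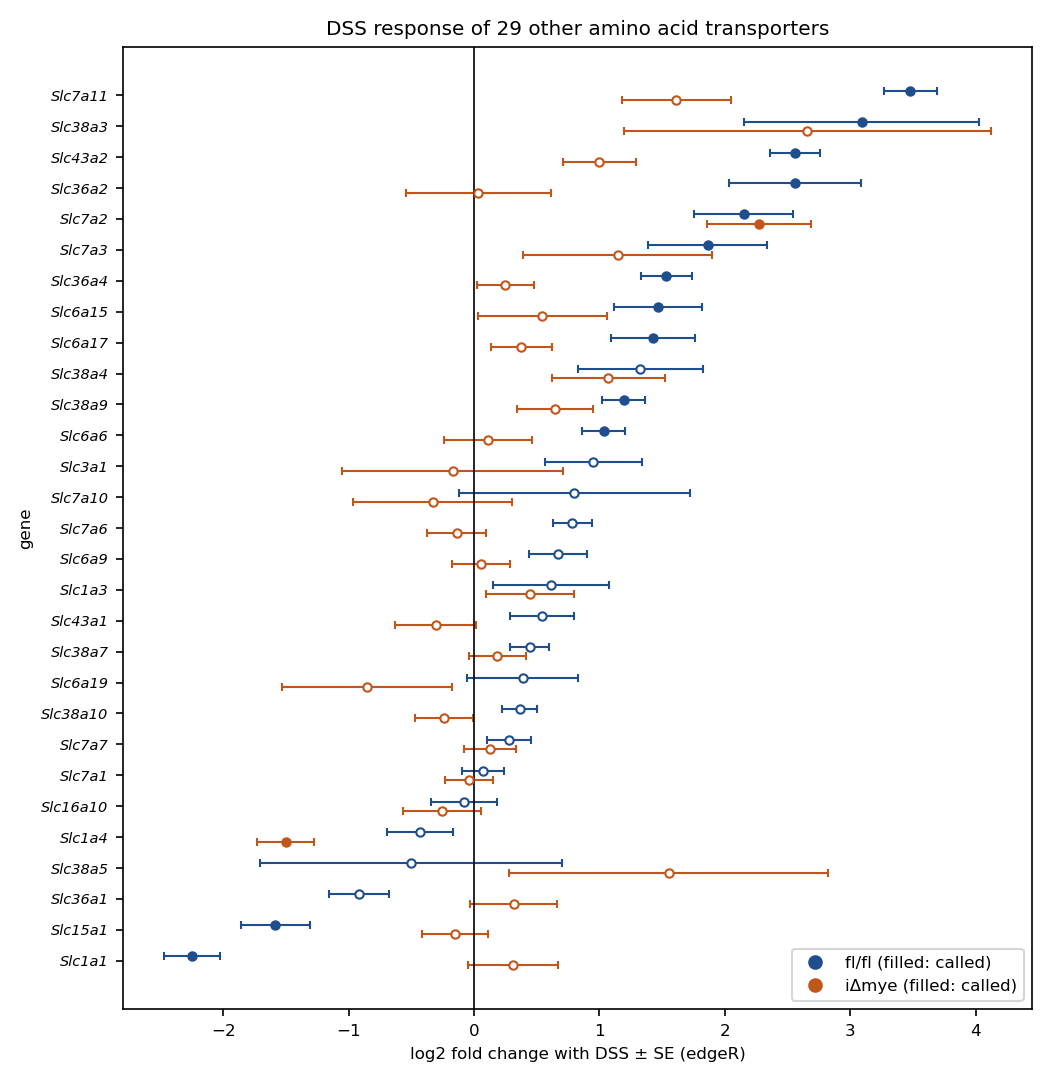
Log2 fold change with DSS and its SE (horizontal axis) of 29 other transporter genes (vertical axis, ordered by the value in Tmem173fl/fl mice), in Tmem173fl/fl (blue) and Tmem173iΔmye mice (orange), filled where called. Of the blue points 11 are filled on the right and 2 on the left, and of the orange points 1 on each side.

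ATF4 is the transcription factor that responds to amino acid shortage. Of 19 genes of the ATF4 amino acid response, 6 were called higher and 1 lower when Tmem173fl/fl mice received DSS, beside 14.9% and 7.61% of all genes, and the list's median was 0.33 against 0.03 over all genes. Ddit4, which restrains mTORC1 under stress, rose by 2.45 (SE 0.22, edgeR adjusted p 2.63e-05), from 26.1 to 45.8 CPM in untreated to 148 to 202 CPM in colitic libraries. The pseudokinase gene Trib3 rose by 2.18 (SE 0.45, edgeR adjusted p 0.00412), and Eif4ebp1, Atf5, Nupr1 and Chac1 were also called higher. By limma on log2(FPKM + 1), the rise of Trib3 was 0.81, under the fold minimum. Cth, an enzyme of cysteine synthesis, fell by 1.85 (SE 0.16, edgeR adjusted p 2.20e-05). Atf4 itself (0.56, edgeR adjusted p 0.0715) and the asparagine synthetase gene Asns (0.42, edgeR adjusted p 0.0743) did not pass. In Tmem173iΔmye mice Cth alone was called, at -1.41 (SE 0.29, edgeR adjusted p 0.0356), beside 0.597% of all genes called lower. This call was lost without any one untreated library or colitic replicate 1 (edgeR adjusted p 0.0943 to 0.191). It was also lost by limma on log2(FPKM + 0.1) and log2(FPKM + 1) (limma adjusted p 0.17 and 0.13).

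Between colitic genotypes 2 of these 19 genes were called, both lower in Tmem173iΔmye mice, beside 1.99% of all genes called lower. Ddit4 was at 41.4 to 57.7 CPM in colitic Tmem173iΔmye libraries, a log2 difference of -1.87 (SE 0.21, edgeR adjusted p 0.00899), and the transcription factor gene Atf5 differed by -1.12 (SE 0.21, edgeR adjusted p 0.0317). The Atf5 call was lost without any one colitic library but replicate 1 of the Tmem173iΔmye group (edgeR adjusted p 0.0561 to 0.136), and the Ddit4 call without replicate 2 of that group (edgeR adjusted p 0.0522). Both calls were also lost by limma on log2(FPKM + 0.1) (limma adjusted p 0.0504 for Ddit4 and 0.088 for Atf5). With a replicate block Atf5 was lost as well (edgeR adjusted p 0.0818). The median of the list was -0.32, against 0.02 over all genes. The interaction was called lower for Ddit4 (-2.32), Nupr1 (-1.37) and Atf5 (-1.31), with edgeR adjusted p 0.00590, 0.0376 and 0.0208, beside 1.61% of all genes called lower. Without DSS, Nupr1 was at 43.0, 59.5 and 49.0 CPM in Tmem173fl/fl and at 85.5, 112 and 103 CPM in Tmem173iΔmye libraries. These groups did not overlap, as was so for 7.35% of all genes, and Nupr1 was not called (log2 difference 0.99, edgeR adjusted p 0.635). Its colitic values of 129, 116 and 162 CPM and of 107, 134 and 70.7 CPM overlapped. The interaction of Nupr1 was lost without any one of 8 of the 12 libraries (edgeR adjusted p 0.0521 to 0.0941). It was also lost by limma on log2(FPKM + 0.1) (limma adjusted p 0.0806).

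Of 18 tested genes of amino acid sensing by mTORC1, 3 were called higher when Tmem173fl/fl mice received DSS and 0 lower, the list's median being -0.04. Beside 14.9% of all genes called higher, this count is close to the background. These were the GTPase gene Rragd (1.69, SE 0.32, edgeR adjusted p 0.00247), the arginine sensor gene Castor1 (1.302, SE 0.29, edgeR adjusted p 0.00574) and Flcn (1.03, SE 0.15, edgeR adjusted p 0.000443). By limma on log2(FPKM + 1), Rragd (0.91) and Castor1 (0.92) were under the fold minimum. Of 13 enzymes of glutamine and tryptophan metabolism, the glutaminase gene Gls2 (2.11, SE 0.65, edgeR adjusted p 0.0285) and the tryptophan dioxygenase gene Tdo2 (1.36, SE 0.32, edgeR adjusted p 0.00827) were called higher, also close to that background. Gls2 was at 1.29, 1.08 and 1.57 CPM in untreated and 9.43, 5.82 and 0.953 CPM in colitic libraries, so the groups overlapped and replicate 3 lay below every untreated library. Its colitic values follow the order of the pancreatic marker sums (9211, 4652 and 572 CPM), it was 6.49 CPM in the colitic Tmem173iΔmye library with 11716 CPM, and 1.57 CPM in the untreated library with 3712 CPM. The part of pancreatic RNA in it was not tested. The Gls2 call was lost without any one untreated library or colitic replicate 1 (edgeR adjusted p 0.0764 to 0.123). It was also lost by limma on log2(FPKM + 0.1) and log2(FPKM + 1) (limma adjusted p 0.21 and 0.17). In 1 fit of all 12 libraries and with a replicate block it was lost as well (edgeR adjusted p 0.0648 and 0.0787). Tdo2 was at 0.45 by limma on log2(FPKM + 1), under the fold minimum. Neither list had a called gene in the other 4 comparisons.

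Over the 12 libraries and 14558 genes with a mean FPKM of at least 1, the genes whose log2(CPM + 1) was most like that of Slc6a14 were Tm9sf2, Arl1 and Syap1, with Pearson r of 0.970, 0.968 and 0.966. For Slc7a5 they were Car11, the immunoglobulin segment Igkv17-121 and Trim35, with r of 0.936, 0.921 and 0.921. For 3 further members, added after the values had been seen, the most alike were Rnd1, the neutrophil collagenase gene Mmp8 and Cyth3 for Slc7a8 (r of 0.986 each), Vsir, Adamts14 and Ldb1 for Slc3a2 (r of 0.985, 0.983 and 0.981), and Cd38, Gm12209 and Slc25a20 for Slc7a9 (r of 0.917, 0.905 and 0.905). The points share the 4 groups and their marker content, so these values describe likeness over these libraries and carry no test.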

How the data were processed

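Whole-colon polyadenylated RNA was sequenced from 12 mice. Per the submitters' processing notes, which list CASAVA 1.8, fastp, HISAT2 2.0.5, featureCounts 1.5.0-p3, DESeq2 1.20.0 and GRCm38 (mm10), the authors deposited whole-number read counts per gene and FPKM, which divide counts by gene length and library total; strand use in counting is not given in the sources used here. The table's fold changes, p-values and group means of the authors' own comparisons were not used, and 0 per-sample columns were unmapped. Genes whose deposited FPKM was 0.1 or more in 3 or more libraries were tested on counts with edgeR 4.0.16 (R 4.3.3; TMM scaling, quasi-likelihood test, Benjamini-Hochberg adjustment), with only the compared groups in each fit and all 12 libraries for the interaction. The scripts were tested on simulated data. Replicates were separate mice, so each p-value sets a difference against the spread between mice. That spread includes the differences in pancreatic, distal colon Hox and Xist content given above.

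Members and lists were chosen with earlier results of these data known. All members were named, and of each other list the 2 largest called changes in each direction per comparison; further names (Slc3a1, Atf4, Asns, Flcn, Atf5 in the interaction, and those given without values) were chosen after their values were seen. Alternatives were RLE scaling, DESeq2 1.42.0, limma 3.58.1 on log2(FPKM + 0.1) or log2(FPKM + 1), other filters and thresholds, 1 fit of all libraries, a replicate block and leaving out libraries. Motif shares were counted in the 250 bases before the start site.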

Additional observations from a re-analysis of the deposited data

Results flagged for a closer look

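For 6 genes among the members and the transporter, ATF4, mTORC1 and enzyme lists, the DSS effect differed between the genotypes by the interaction test of edgeR. Among all genes tested 2.55% were called. The log2 interaction was -1.29 for Slc7a8 and 1.99 for Slc7a9, and for the other genes named it was 2.63 for Slc1a1, -2.32 for Ddit4, -1.37 for Nupr1 and -1.31 for Atf5. The colitic Tmem173iΔmye libraries were above the untreated ones in all 3 mice for Slc7a9. For Ddit4 the colitic Tmem173fl/fl libraries were the highest 3 of the 12. The calls of Slc7a8, Slc7a9 and Nupr1 were each lost without any one of 8 of the 12 libraries. Those of Slc1a1 and Ddit4 were kept without each library in turn. The Atf5 interaction was not put through the alternatives.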

How the results depend on the processing

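The log2 fold changes of the members and named genes under the alternatives kept their direction and their side of the threshold in 881 cases, lost the threshold in 105, passed it newly in 12 and turned in 34. The 881 include members that were not called and stayed so. Between colitic genotypes the call of Slc7a8 was lost in 7 and that of Slc7a9 in 5 of 15 fits. For the interaction each was lost in 11 of 20 fits. Counts of members called were 3 with DSS in Tmem173fl/fl mice (2 to 4 with 1 library left out) and 1 in Tmem173iΔmye mice (0 to 1, and 0 by limma on log2(FPKM + 0.1)). Between colitic genotypes the count was 2, against 0 and 1 by limma with 0.1 and 1 added, 1 with a replicate block and 0 to 5 with 1 library left out. For the interaction it was 2, against 4 by unadjusted p, 0 by limma with 0.1 added, 0 with a replicate block, 0 in the libraries with low Xist (chosen after seeing the data) and 0 to 4 with 1 library left out. The cause of these shifts was not tested.

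Of the other transporters, 13 were called with DSS in Tmem173fl/fl mice, and 6 by limma with 1 added. In Tmem173iΔmye mice it was 2, against 5 by unadjusted p, 4 by DESeq2, 0 by either limma fit, 4 in 1 fit of all libraries, 4 with a replicate block and 0 to 4 with 1 library left out. Between untreated genotypes it was 0, against 1 by unadjusted p and 1 with the replicate block. Between colitic genotypes it was 1, against 5 by unadjusted p, 4 by DESeq2, 0 by either limma fit, 4 with no filter, 4 in 1 fit, 2 with the block and 0 to 2 with 1 library left out. For the interaction it was 1, against 7 by unadjusted p, 3 by RLE, 6 by DESeq2, 2 by limma with 1 added, 6 with no filter, 3 at FPKM of at least 1, 2 with the block, 2 with low Xist and 1 to 6 with 1 library left out.

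Directions turned only for members not called. With low Xist these were Slc6a20a (0.0728) and Slc7a9 (-0.0708) for DSS in Tmem173fl/fl mice, Slc7a5 (0.13), Slc3a2 (-0.0369), Slc1a5 (-0.13), Slc38a2 (0.0151) and Slc7a8 (-0.0157) between untreated genotypes, and Slc6a20a (-0.0849) between colitic genotypes. Slc38a2 between colitic genotypes was -0.0228 and -0.0221 by limma with 0.1 and 1 added and -0.0126 at FPKM of at least 1, where its interaction was -0.0191. With 1 library left out, Slc6a20a ranged from -0.44 to 0.0728 and Slc7a9 from -0.12 to 0.39 for DSS in Tmem173fl/fl mice, and Slc6a14 from -0.39 to 0.0344, Slc7a5 from -0.33 to 0.26 and Slc3a2 from -0.00374 to 0.50 in Tmem173iΔmye mice. Between untreated genotypes Slc6a14 ranged from -0.0389 to 0.34, Slc7a5 from -0.26 to 0.17, Slc1a5 from -0.0869 to 0.12, Slc38a2 from -0.0687 to 0.00279 and Slc7a8 from -0.0632 to 0.14. Between colitic genotypes Slc38a2 ranged from -0.0838 to 0.0847 and Slc6a20a from -0.0849 to 0.90, and the interaction of Slc1a5 from -0.19 to 0.0162 and of Slc38a2 from -0.0640 to 0.11.

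Same-numbered libraries correlated from -0.19 to 0.21 in their deviations, so the numbers were not taken to pair mice. Slc6a20a and Slc7a9 rest on the fewest counts.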
